A study of Mus musculus with 18 samples.

Results

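The cholesterol and fatty acid synthesis genes described here are 8 genes, Srebf1, Srebf2, Insig1, Hmgcs1, Sqle, Acaca, Fasn and Scd1, chosen by symbol from 24341 genes measured by polyA RNA sequencing of mouse hearts. All mice were C57BL/6, 12 weeks old, and fell into 2 genotypes, labelled Med13 cKO (cardiac knockout of the Mediator subunit Med13) and WT. Each genotype had 3 treatments. PTU+T3 mice had a diet with propylthiouracil (PTU), a drug that blocks thyroid hormone synthesis, for 4 weeks from 8 weeks of age and then 3 daily injections of triiodothyronine (T3), the active hormone. PTU mice had the PTU diet alone, and chow mice had normal chow. The 6 groups held 3 libraries each, 18 in all. PTU+T3 mice carried PTU as well, so no group received T3 without it. No source used here names the Cre line behind the Med13 deletion. The labels do not tie the libraries to single mice, and the p-values below cover the spread among these libraries, part of which may be technical.

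Cells make cholesterol and fatty acids from acetyl-CoA, and the transcription factors SREBP-1 and SREBP-2 switch on the genes of both routes when membrane sterols run low. Insig proteins hold the SREBPs in the endoplasmic reticulum when sterols are plentiful, and the nuclear receptor LXR raises Srebf1 when oxysterols accumulate. In liver, thyroid hormone is known to act on several of these genes. The heart takes up most of its fuel as ready-made fatty acids, and its own lipid synthesis is low.

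The sequences upstream of listed start sites show where known elements of this system stand. They are printed for Hmgcs1 and Srebf1, which the results turn on, and for Insig1, which passed no test below. They come from RefSeq (build GRCm38.p6, which is mm10), cover the 250 bases before each start listed with a promoter, and are printed 5′ to 3′ on the strand of the gene. Capitals mark a sterol regulatory element core (CACNCCAC, the SREBP site), an E-box (CACGTG) or a CCAAT box (CCAAT, bound by the factor NF-Y), each searched on both strands. Of the 8 genes, 6 had a promoter in the table, and Sqle and Scd1 had none. Of listed starts, Hmgcs1 had 1, Insig1 had 1 and Srebf1 had 3. Not every start of a gene was listed. On the minus strand, the annotated Srebf1 and Fasn genes begin at 60224186 and 120825166, upstream of all their windows. The only Acaca window (chr11:84195188-84195437) lies inside the gene, which begins at 84129635.
Hmgcs1, chr13:119690101-119690350 (+): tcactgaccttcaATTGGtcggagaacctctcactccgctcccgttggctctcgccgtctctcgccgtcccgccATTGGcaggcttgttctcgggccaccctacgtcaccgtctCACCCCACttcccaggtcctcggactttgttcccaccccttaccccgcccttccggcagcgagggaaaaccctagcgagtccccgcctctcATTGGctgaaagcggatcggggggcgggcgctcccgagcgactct
Insig1, chr5:28071162-28071411 (+): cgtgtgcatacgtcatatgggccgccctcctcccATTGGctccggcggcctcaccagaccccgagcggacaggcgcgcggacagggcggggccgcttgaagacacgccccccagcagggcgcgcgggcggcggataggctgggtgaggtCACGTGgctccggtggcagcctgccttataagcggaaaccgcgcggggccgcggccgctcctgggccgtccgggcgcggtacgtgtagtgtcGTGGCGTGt
Srebf1, start 1, chr11:60222582-60222831 (-): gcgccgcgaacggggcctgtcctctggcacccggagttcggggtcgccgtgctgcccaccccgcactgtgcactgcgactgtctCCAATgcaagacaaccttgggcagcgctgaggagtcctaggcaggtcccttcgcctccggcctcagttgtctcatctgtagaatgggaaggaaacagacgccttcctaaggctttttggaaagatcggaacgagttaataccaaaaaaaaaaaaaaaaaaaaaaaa
Srebf1, start 2, chr11:60220628-60220877 (-): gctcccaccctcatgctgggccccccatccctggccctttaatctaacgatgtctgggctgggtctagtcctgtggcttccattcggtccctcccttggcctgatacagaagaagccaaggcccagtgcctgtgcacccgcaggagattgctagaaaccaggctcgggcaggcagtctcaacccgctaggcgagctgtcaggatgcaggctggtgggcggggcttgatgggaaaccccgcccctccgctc
Srebf1, start 3, chr11:60210472-60210721 (-): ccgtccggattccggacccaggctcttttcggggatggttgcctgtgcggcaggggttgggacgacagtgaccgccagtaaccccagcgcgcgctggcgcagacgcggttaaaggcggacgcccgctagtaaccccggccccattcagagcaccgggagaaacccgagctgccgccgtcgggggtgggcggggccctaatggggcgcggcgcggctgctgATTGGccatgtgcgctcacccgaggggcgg

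The sterol regulatory element core stood in the windows of 2 of the 6 genes, Hmgcs1 (first base at -136 from the start) and Insig1 (-9, opposite strand). It stood in 1634 of 27025 genes and in 5.29% of the 32851 promoters in the table. Insig1 alone of the 6 held the E-box in its window, at -101, a sequence found in 1854 of 27025 genes and in 6.02% of promoters. CCAAT boxes stood in 5 of the 6, all but Acaca, against 33.85% of promoters, with 3 in Hmgcs1 and 3 in Fasn. The half-site of the thyroid hormone response element (AGGTCA, searched on both strands and left in lower case) was at -246 in Hmgcs1, on the opposite strand. In Insig1 it was at -105, where its last 2 bases are shared with the E-box and so printed in capitals. Of all promoters, 14.02% held the half-site, as did 4260 of 27025 genes. A match is a stretch of letters and not a bound site.

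Values are FPKM (fragments per kilobase of transcript, scaled to the mapped reads), which are corrected for length and so allow levels of different genes to be compared. Each library had from 11677 to 12091 genes at 1 FPKM or more. Absolute depth is unknown, and the steps between low values put the deepest library about 1.57 times above the shallowest. That value is rough, as only 25.2% to 31.2% of the ratios of low values between libraries lay at the step used. The tests covered the 12587 genes that reached 1 FPKM in 3 or more libraries, all 8 genes among them. Tests are limma's moderated test on log2(FPKM + 1) over all 18 libraries, with p-values adjusted over the 12587 genes (Benjamini-Hochberg) and a call at an adjusted p under 0.05. On this scale the fold changes of low genes come out too small. Bulk tissue cannot tell fewer cells of a type from less RNA per cell. Cardiomyocyte markers summed to between 41571 and 83912 FPKM. All 7 tested thyroid hormone response genes were called with T3 in both genotypes, among them Hr (log2 fold change 4.65 in cKO and 4.81 in WT). Of all tested genes, 46.7% were called in cKO and 44.1% in WT. The list holds 9 genes, and Dio2 and Dio3 were too low to test. With PTU alone, all tested ones but Thrb were called in both genotypes (Thrb limma adjusted p = 0.0787 in cKO and 0.0709 in WT). The list was chosen with earlier results of these data known, so it is no independent check. Med13 did not separate the genotypes. It averaged 5.83 ± 0.713 FPKM in libraries labelled cKO and 5.87 ± 0.596 FPKM in those labelled WT (SD, n = 9 each), and gene-level values do not show which exons were deleted, so "cKO" below is the library's label.

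The 8 genes were expressed at low to moderate levels. Per length, Hmgcs1, the synthase that makes HMG-CoA in the cytosol, had the highest mean, 15.1 FPKM over the 18 libraries, above 64.8% of tested genes. Srebf1, which encodes SREBP-1, averaged 14.5 FPKM, and Scd1, the desaturase that makes monounsaturated fatty acids, averaged 13.6 FPKM with a median of only 6.78 FPKM. Insig1 averaged 8.66 FPKM, Srebf2 (SREBP-2) 8.26 FPKM and Fasn (fatty acid synthase) 6.15 FPKM. Acaca, the acetyl-CoA carboxylase that makes malonyl-CoA, averaged 2.45 FPKM. Sqle, squalene epoxidase of the cholesterol branch, was lowest at 0.94 FPKM, above 4.19% of tested genes. Sqle reached 1 FPKM in 4 libraries, 3 of them PTU+T3, so it entered the test mostly through the group in which it was highest.

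The genes differed most in how far they ranged. Scd1 spanned a 31.9-fold range of FPKM between libraries, Sqle 13.6-fold, Srebf1 4.69-fold and Fasn 4.08-fold. Acaca, Insig1, Hmgcs1 and Srebf2 stayed within 1.82-fold to 2.23-fold.

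**Figure D1:**
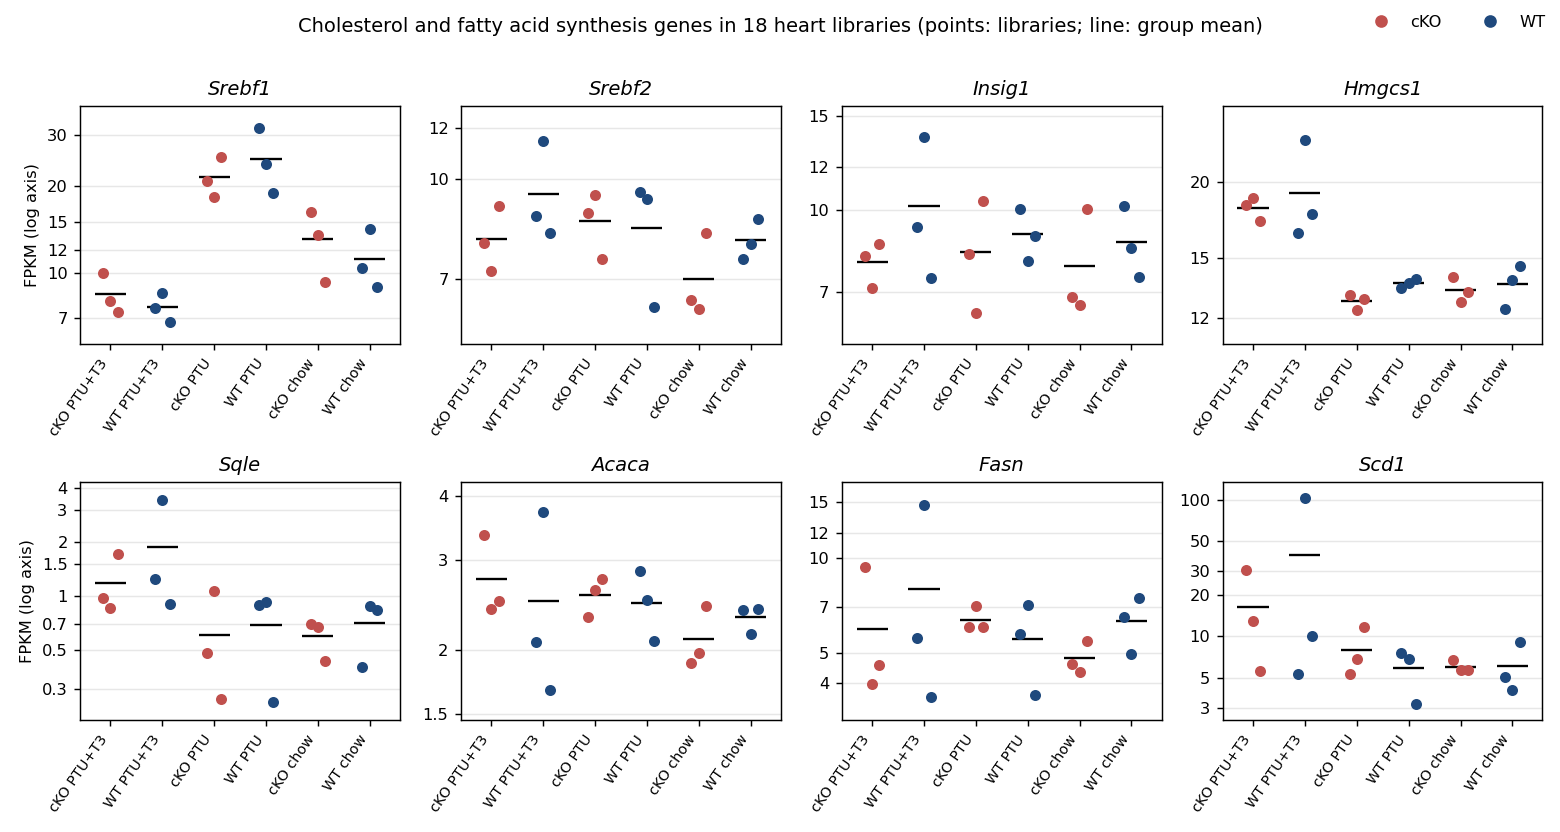
FPKM of the 8 genes (log axis) in each of the 18 libraries, by group, with a line at the group mean. Srebf1 is high in PTU libraries (18.3 to 31.8 FPKM) and low in PTU+T3 libraries (6.79 to 10.04 FPKM), Hmgcs1 is higher in every PTU+T3 library (16.5 to 23.4 FPKM) than in any other (12.4 to 14.6 FPKM), and 1 WT PTU+T3 library stands high for Scd1, Fasn, Sqle, Insig1, Srebf2, Acaca and Hmgcs1.

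T3 given after PTU lowered Srebf1 and raised Hmgcs1 in both genotypes, and no other of the 8 genes passed the test. The 2 called genes make up 2 of 8 in each genotype, while 46.7% of all tested genes were called in cKO and 44.1% in WT. The 1 higher gene of 8 stands beside 24.9% of all genes higher in cKO and 22.3% in WT, and the 1 lower gene beside 21.8% lower in each. The count is no higher than the background.

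Srebf1 had 10.04, 8.05 and 7.35 FPKM in cKO PTU+T3 libraries, against 20.8, 18.3 and 25.2 FPKM in cKO PTU libraries. In WT the values were 7.59, 8.56 and 6.79 FPKM with PTU+T3, against 31.8, 23.9 and 19.0 FPKM with PTU. All PTU+T3 libraries lay below all PTU libraries in both genotypes, with a wide gap between the groups. On the log2 scale the fold change was -1.24 ± 0.21 in cKO (SE, limma adjusted p = 0.000191) and -1.56 ± 0.21 in WT (limma adjusted p = 2.93e-05), a level on the pseudocount scale of 0.423 and 0.339 times that on PTU. Srebf1 was called under all 17 alternatives in each genotype.

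Hmgcs1 had 18.3, 18.8 and 17.2 FPKM in cKO PTU+T3 libraries, against 13.1, 12.4 and 12.9 FPKM in cKO PTU libraries. In WT it had 16.5, 23.4 and 17.7 FPKM with PTU+T3, against 13.4, 13.7 and 13.9 FPKM with PTU. The groups did not overlap in either genotype, as was the case for 55.4% of all tested genes in cKO and 50.7% in WT. Of all genes, 28.5% lay wholly higher and 26.9% wholly lower with PTU+T3 in cKO, and 25.4% wholly higher and 25.3% wholly lower in WT. The log2 fold change was 0.47 ± 0.10 in cKO (SE, limma adjusted p = 0.00106) and 0.45 ± 0.10 in WT (limma adjusted p = 0.00187), or 1.39-fold and 1.36-fold on the pseudocount scale. This smaller change was also called under all 17 alternatives in each genotype. Left without the library highest in adipocyte markers of each group, the WT value was 0.29 (limma adjusted p = 0.0479). An antisense transcript, Gm48342, overlaps 557 of the 4594 exon bases of Hmgcs1 and is not in the FPKM table. The kit does not mark strand, and its reads cannot be told from those of Hmgcs1. For Srebf1 the overlap with Rai1 on the other strand covers 109 of 5634 exon bases.

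Sqle, the other cholesterol enzyme among the 8, missed the threshold. It had 0.97, 0.85 and 1.72 FPKM in cKO PTU+T3 libraries, against 0.48, 1.07 and 0.27 FPKM in cKO PTU libraries, and 1.25, 3.44 and 0.90 FPKM in WT PTU+T3 libraries, against 0.89, 0.93 and 0.25 FPKM in WT PTU libraries. The groups overlapped in both genotypes. Its log2 fold change was 0.45 (95% interval -0.15 to 1.06) in cKO and 0.69 (0.08 to 1.29, limma adjusted p = 0.0564) in WT. The WT value was 0.32 without WT PTU+T3 replicate 2 (limma adjusted p = 0.318). It was called without WT PTU+T3 replicate 3 (0.93, limma adjusted p = 0.0197) and with quantile normalization (0.66, limma adjusted p = 0.0485). In the authors' deposited table, Sqle passed for WT PTU+T3 against WT PTU, with group values of 1.86 and 0.69 FPKM and a q-value of 0.00116, and the 1.86 FPKM includes the library at 3.44 FPKM. That table gave 5 of the 8 genes a q-value under 0.05 in this comparison, beside 35.6% of all genes the authors tested.

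Scd1 and Fasn, both of the fatty acid branch, varied most among the T3 libraries. Scd1 had 30.7, 13.02 and 5.55 FPKM in cKO PTU+T3 libraries, against 5.29, 6.90 and 11.7 FPKM in cKO PTU libraries. In WT it had 5.34, 102 and 10.1 FPKM with PTU+T3, against 7.60, 6.88 and 3.21 FPKM with PTU. One WT PTU+T3 library thus stood about an order of magnitude above its replicates, and the groups overlapped. The log2 fold change of Scd1 was 0.74 (95% interval -1.07 to 2.54) in cKO and 1.55 (-0.25 to 3.36, limma adjusted p = 0.147) in WT. Without that library (WT PTU+T3 replicate 2) the WT value was 0.35 (limma adjusted p = 0.651), and without replicate 1 it was 2.36 and called (limma adjusted p = 0.0316).

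Fasn had 9.33, 3.97 and 4.56 FPKM in cKO PTU+T3 libraries, against 6.06, 7.03 and 6.02 FPKM in cKO PTU libraries. WT PTU+T3 libraries had 5.57, 14.7 and 3.61 FPKM of Fasn, against 5.75, 7.11 and 3.69 FPKM in WT PTU libraries. The high value was again in WT PTU+T3 replicate 2, and the groups overlapped. Fasn had log2 fold changes of -0.16 (95% interval -0.95 to 0.63) in cKO and 0.30 (-0.49 to 1.09) in WT. Without WT PTU+T3 replicate 2 the WT value turned to -0.21 (limma adjusted p = 0.594), and without cKO PTU+T3 replicate 2 the cKO value turned to 0.04 (limma adjusted p = 0.944). The authors' deposited table gave both genes a q-value under the threshold for WT PTU+T3 against WT PTU, 0.00034 for Scd1 (39.3 and 5.90 FPKM) and 0.00732 for Fasn (7.98 and 5.52 FPKM), and their group values include the high library. Scd1 has close paralogs in mouse, so reads may be split between family members.

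The regulators Srebf2 and Insig1 and the enzyme Acaca were not called. Srebf2 lay between 7.19 and 9.06 FPKM in cKO PTU+T3 libraries and 7.50 and 9.45 FPKM in cKO PTU libraries, and between 8.24 and 11.5 FPKM in WT PTU+T3 libraries and 6.32 and 9.52 FPKM in WT PTU libraries. Insig1 ranged over 7.13 to 8.61 FPKM in cKO PTU+T3 libraries and 6.399 to 10.4 FPKM in cKO PTU libraries, and over 7.43 to 13.7 FPKM in WT PTU+T3 libraries and 8.02 to 10.04 FPKM in WT PTU libraries. The log2 fold changes of Insig1 were -0.04 (95% interval -0.47 to 0.39) in cKO and 0.12 (-0.31 to 0.55) in WT. The Srebf2 values were -0.08 (-0.40 to 0.24) in cKO and 0.17 (-0.16 to 0.49) in WT, and those of Acaca 0.07 (-0.30 to 0.43) and -0.03 (-0.40 to 0.33) in the same order of genotypes. Leaving out 1 library at a time turned the sign of Insig1 and Acaca in both genotypes (-0.197 to 0.11 for Insig1 and -0.05 to 0.13 for Acaca in cKO, -0.096 to 0.304 and -0.27 to 0.14 in WT).

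**Figure D2:**
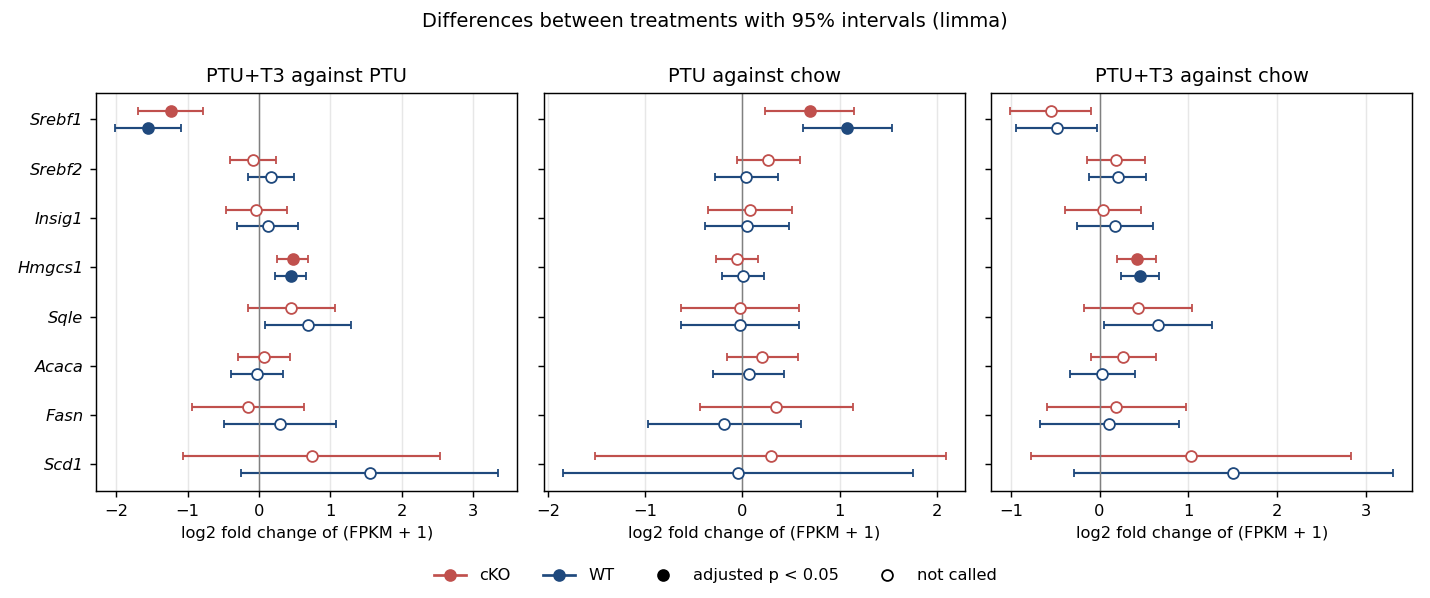
Log2 fold changes of (FPKM + 1) of the 8 genes with 95% intervals for PTU+T3 against PTU, PTU against chow and PTU+T3 against chow, in cKO and WT, with filled points for an adjusted p under 0.05. Srebf1 and Hmgcs1 are the only filled genes, Srebf1 moving in opposite directions with T3 (-1.24 and -1.56) and with PTU (0.69 and 1.08), and the intervals of Scd1 are the widest.

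PTU alone raised Srebf1 in both genotypes and called no other of the 8 genes. In cKO, Srebf1 had 20.8, 18.3 and 25.2 FPKM with PTU, against 16.3, 13.6 and 9.32 FPKM with chow. WT PTU libraries had 31.8, 23.9 and 19.0 FPKM, against 10.4, 14.2 and 9.001 FPKM in WT chow libraries. PTU libraries lay above chow libraries without overlap, by a narrow margin in cKO. Non-overlap was found for 32.4% of tested genes in cKO (15.1% higher and 17.3% lower) and for 35.6% in WT (18.3% higher and 17.3% lower). The log2 fold change was 0.69 ± 0.21 in cKO (SE, limma adjusted p = 0.0356) and 1.08 ± 0.21 in WT (limma adjusted p = 0.00284). The 1 of 8 called compares with 16% of all tested genes in cKO, 6.44% higher and 9.59% lower, and with 16.8% in WT, 8.02% higher and 8.76% lower.

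The cKO call did not hold in 4 of 6 fits that left out 1 library, those without cKO PTU replicate 1 or 3 or cKO chow replicate 2 or 3, where the log2 fold change lay between 0.48 and 0.74 and the limma adjusted p between 0.0680 and 0.130. The highest Srebf1 values on PTU, 31.8 FPKM in WT replicate 1 and 25.2 FPKM in cKO replicate 3, were in the libraries with the highest atrial and adipocyte marker sums of their groups. Atrial markers summed to 2065 FPKM in that cKO library and 2515 FPKM in that WT library, against group medians of 155 and 322 FPKM. Without the library highest in atrial markers of each group, the Srebf1 change was 0.62 in cKO (limma adjusted p = 0.195) and 0.76 in WT (limma adjusted p = 0.122).

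Of the other 7 genes, Fasn in cKO was higher in every PTU library (6.02 to 7.03 FPKM) than in any chow library (4.34 to 5.45 FPKM), with a log2 fold change of 0.35 (95% interval -0.44 to 1.13, limma adjusted p = 0.554). In WT, Fasn overlapped between PTU (3.69 to 7.11 FPKM) and chow (4.96 to 7.46 FPKM). Hmgcs1 had a narrow interval around 0 on PTU, -0.05 (-0.27 to 0.16) in cKO and 0.01 (-0.21 to 0.22) in WT. Sqle, Srebf2, Acaca, Scd1 and Insig1 overlapped between PTU and chow in both genotypes, and their log2 fold changes lay between -0.04 and 0.29.

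Against chow, PTU+T3 left Hmgcs1 higher in both genotypes. Hmgcs1 had 18.3, 18.8 and 17.2 FPKM in cKO PTU+T3 libraries, against 13.97, 12.7 and 13.2 FPKM in cKO chow libraries, and 16.5, 23.4 and 17.7 FPKM in WT PTU+T3 libraries, against 12.4, 13.9 and 14.6 FPKM in WT chow libraries. The groups did not overlap. The log2 fold change was 0.42 ± 0.10 in cKO (SE, limma adjusted p = 0.00771) and 0.45 ± 0.10 in WT (limma adjusted p = 0.00728). It was the 1 gene of 8 called in each genotype, beside 20.9% of all tested genes in cKO (11.7% higher and 9.15% lower) and 14.7% in WT (7.68% higher and 7% lower). The call was lost in WT without the library highest in adipocyte markers of each group (0.36, limma adjusted p = 0.0754) and with only the groups compared in the fit (limma adjusted p = 0.0841), and in cKO without the library highest in atrial markers of each group (0.36, limma adjusted p = 0.116).

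Srebf1 was below its chow level after PTU+T3, but not past the threshold. It had 7.35 to 10.04 FPKM in cKO PTU+T3 libraries, against 9.32 to 16.3 FPKM in cKO chow libraries, overlapping by 1 library of each group, and 6.79 to 8.56 FPKM in WT PTU+T3 libraries, against 9.001 to 14.2 FPKM in WT chow libraries, without overlap. The log2 fold change was -0.55 (95% interval -1.01 to -0.09, limma adjusted p = 0.0758) in cKO and -0.48 (-0.94 to -0.02, limma adjusted p = 0.139) in WT. Without cKO chow replicate 3 the cKO value was -0.76 and was called (limma adjusted p = 0.0267). Sqle was higher in every PTU+T3 library than in any chow library in both genotypes, at 0.85 to 1.72 FPKM against 0.43 to 0.69 FPKM in cKO and 0.90 to 3.44 FPKM against 0.40 to 0.88 FPKM in WT, and was not called (limma adjusted p = 0.299 in cKO and 0.126 in WT). Of all tested genes, 41.7% did not overlap in cKO (22.4% higher and 19.3% lower) and 31.4% in WT (16.3% higher and 15.2% lower). In the authors' deposited table for WT PTU+T3 against WT chow, q-values were 0.00109 for Scd1, 0.00277 for Sqle and 0.0127 for Hmgcs1, the 3 of the 8 genes under 0.05, beside 12.4% of all genes the authors tested. The 3 pairs of treatments share libraries, so their values are set side by side and are not independent.

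No difference between cKO and WT was called for any of the 8 genes on any treatment. With limma, 0 of the 8 and 0 of all 12587 tested genes had an adjusted p under 0.05 on PTU+T3, on PTU or on chow (0% of genes). At an unadjusted p under 0.05 the 8 genes still gave 0 in each, and all genes gave 434, 491 and 394. The log2 difference of cKO from WT in Srebf1 was 0.13 (95% interval -0.33 to 0.59) on PTU+T3, -0.19 (-0.65 to 0.27) on PTU and 0.20 (-0.26 to 0.65) on chow. For Hmgcs1 it was -0.07 (-0.28 to 0.15) on PTU+T3, -0.09 (-0.31 to 0.12) on PTU and -0.03 (-0.24 to 0.19) on chow. On PTU, Hmgcs1 was lower in every cKO library (12.4 to 13.1 FPKM) than in any WT library (13.4 to 13.9 FPKM), and 7.52% of tested genes did not overlap there (3.44% higher and 4.08% lower). A genotype difference in Hmgcs1 as large as its T3 response lies outside these 3 intervals.

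The responses were not found to differ between genotypes either. With limma, the test of the difference called 0 of the 8 genes and 0 of 12587 for PTU and for T3, and at an unadjusted p under 0.05 it gave 0 of the 8 in both, and 805 and 821 genes in all. The difference of the T3 response of cKO from that of WT was 0.32 (95% interval -0.33 to 0.96) for Srebf1, 0.03 (-0.28 to 0.33) for Hmgcs1 and -0.82 (-3.37 to 1.73) for Scd1. In the authors' deposited table, Scd1 was the 1 gene of the 8 with a q-value under the threshold between genotypes, at 15.8 FPKM in cKO PTU+T3 and 38.3 FPKM in WT PTU+T3 (q = 0.00736). Under that q-value threshold of 0.05 the authors' deposited table had 121 of 12214 genes (0.991%) on PTU+T3, 117 (0.95%) on PTU and 80 (0.664%) on chow. The WT value holds the library at 102 FPKM, and without it the log2 difference on PTU+T3 was 0.77, against -0.44 with it, and was not called in either fit.

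The rest of the cholesterol pathway moved unevenly with T3. Of 18 other enzymes of cholesterol synthesis, all tested, 6 rose and 2 fell in cKO and 9 rose and 2 fell in WT. The median log2 fold change was 0.27 in cKO and 0.35 in WT, beside 0.00 over all tested genes in both, and 46.7% and 44.1% of all genes were called. Without WT PTU+T3 replicate 2 the WT counts were 3 higher and 3 lower, with a median of 0.22. Hsd17b7, a reductase of the later steps, had 7.26, 8.37 and 8.90 FPKM in cKO PTU+T3, against 3.14, 2.86 and 3.00 FPKM in cKO PTU, and 9.99, 9.39 and 9.18 FPKM in WT PTU+T3, against 3.49, 3.05 and 3.36 FPKM in WT PTU. Its groups stood far apart, with log2 fold changes of 1.19 in cKO (limma adjusted p = 1.08e-05) and 1.29 in WT (limma adjusted p = 6.52e-06).

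Idi1, the isopentenyl diphosphate isomerase, rose by a log2 fold change of 0.96 in cKO and 1.11 in WT, and its WT PTU+T3 values of 7.18, 19.2 and 6.37 FPKM include the high library. Without that library the WT value was 0.65 (limma adjusted p = 0.00185). The WT call was lost with only the groups compared in the fit (limma adjusted p = 0.0639), and the cKO call without the library highest in atrial markers of each group (0.88, limma adjusted p = 0.0922). Fdft1, squalene synthase, which stands just before Sqle in the pathway, fell by 0.58 on the log2 scale in cKO and 0.93 in WT. The cKO call was lost without the library highest in adipocyte markers of each group (-0.44, limma adjusted p = 0.116) and without the one highest in atrial markers (-0.49, limma adjusted p = 0.0674). Fdft1 had 9.64 to 10.9 FPKM in WT PTU+T3 libraries, against 17.1 to 24.1 FPKM in WT PTU libraries. With PTU alone, 0 of the 18 rose and 1 fell in cKO and 2 rose and 1 fell in WT, beside 16% and 16.8% of all genes called. Hsd17b7 was the 1 gene that fell in each genotype, by 0.54 in cKO and 0.72 in WT on the log2 scale. The cKO call was lost in 5 of 6 fits that left out 1 library, those without any 1 of the 3 cKO PTU libraries or cKO chow replicate 1 or 3 (limma adjusted p 0.0539 to 0.0925). The WT call was lost without the library highest in adipocyte markers of each group (-0.54, limma adjusted p = 0.0817) or in atrial markers (limma adjusted p = 0.0518). Against chow after PTU+T3, 3 rose and 2 fell in cKO and 3 rose and 0 fell in WT. In that comparison 20.9% of all tested genes were called in cKO (11.7% higher and 9.15% lower) and 14.7% in WT (7.68% higher and 7% lower).

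Among 12 genes of sterol sensing and uptake, 11 were tested, and T3 raised 4 and lowered 2 in cKO and raised 3 and lowered 2 in WT, beside 46.7% and 44.1% of all tested genes called in cKO and in WT. Mylip, a ubiquitin ligase and a target of LXR, fell. It had 6.91, 6.88 and 5.58 FPKM in cKO PTU+T3, against 22.4, 17.2 and 21.9 FPKM in cKO PTU, and 8.58, 6.67 and 8.89 FPKM in WT PTU+T3, against 19.1, 22.2 and 19.9 FPKM in WT PTU. Its groups stood apart without overlap, with log2 fold changes of -1.52 in cKO (limma adjusted p = 5.08e-07) and -1.25 in WT (limma adjusted p = 4.03e-06). With PTU alone Mylip rose by 0.73 in each genotype on the log2 scale, though it was not called without the library highest in atrial markers of each group (0.60 in cKO, limma adjusted p = 0.0839, and 0.66 in WT, limma adjusted p = 0.0610). Srebf1 took the same directions in both comparisons.

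Srebf1 and Mylip are both known LXR targets. Of 11 other tested LXR and cholesterol efflux genes, 2 rose and 5 fell with T3 in cKO and 1 rose and 4 fell in WT. Of all tested genes, 24.9% rose and 21.8% fell in cKO, and 22.3% rose and 21.8% fell in WT. The cholesterol exporter Abca1 fell by 1.12 in cKO and 0.77 in WT on the log2 scale, and Nceh1, a cholesteryl ester hydrolase, rose by 0.63 in WT. With PTU alone, 2 rose and 2 fell in cKO and 0 rose and 2 fell in WT, beside 16% of all tested genes called in cKO and 16.8% in WT. Both that fell in each genotype were Nceh1 and Pltp, the phospholipid transfer protein. The cKO call of Pltp was lost without cKO PTU replicate 1 (-0.64, limma adjusted p = 0.0591) or 3 (-0.62, limma adjusted p = 0.0517), and its WT call without the library highest in adipocyte (limma adjusted p = 0.0505) or atrial markers of each group (limma adjusted p = 0.0808).

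In the fatty acid branch, T3 raised 10 and lowered 3 of 18 other tested genes in cKO and raised 8 and lowered 1 in WT, while Acaca, Fasn and Scd1 were not called. Medians were 0.34 in cKO and 0.37 in WT, and 46.7% and 44.1% of all tested genes were called. Of the 18, 8 (44.4%) had their highest value in WT PTU+T3 replicate 2, against 7.84% of all tested genes, and the WT count and median include that library. Mlxipl encodes ChREBP, a carbohydrate-sensing transcription factor of lipid synthesis. It had 21.9, 20.7 and 17.5 FPKM in cKO PTU+T3, against 2.69, 2.44 and 3.64 FPKM in cKO PTU, and 17.9, 11.9 and 18.5 FPKM in WT PTU+T3, against 4.10, 3.51 and 3.53 FPKM in WT PTU. Its log2 fold change was 2.43 in cKO (limma adjusted p = 1.80e-08) and 1.84 in WT (limma adjusted p = 3.26e-07), opposite to that of Srebf1. Thrsp, a thyroid hormone responsive gene linked to lipid synthesis, rose by 0.93 in cKO and 1.42 in WT. Hacd1, a dehydratase of fatty acid elongation, rose by 1.37 in WT, and Scd4, the heart member of the desaturase family, fell by 1.97 in cKO and 1.22 in WT on the log2 scale. The WT call of Scd4 was lost without WT PTU+T3 replicate 2 or 3 or WT PTU replicate 3, with log2 fold changes of -0.95, -1.095 and -0.80 in that order. With PTU alone 1 rose and 3 fell in cKO and 0 rose and 6 fell in WT, beside 16% and 16.8% of all genes called. Mlxipl fell by 1.52 in cKO and 1.099 in WT.

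Triglyceride synthesis had 8 genes up and 1 down of 11 tested with T3 in each genotype, and 0 up and 7 down in cKO and 1 up and 3 down in WT with PTU alone. Of all tested genes, 46.7% in cKO and 44.1% in WT were called with T3, and 16% and 16.8% with PTU alone. Lpin3, a phosphatidate phosphatase, rose by 2.27 in cKO and 2.68 in WT with T3, and Dgat2, which makes triglyceride from diacylglycerol, by 1.95 in cKO and 1.31 in WT. The medians with T3 were 1.02 in cKO and 0.58 in WT, and with PTU alone -0.67 in cKO and -0.37 in WT.

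**Figure D3:**
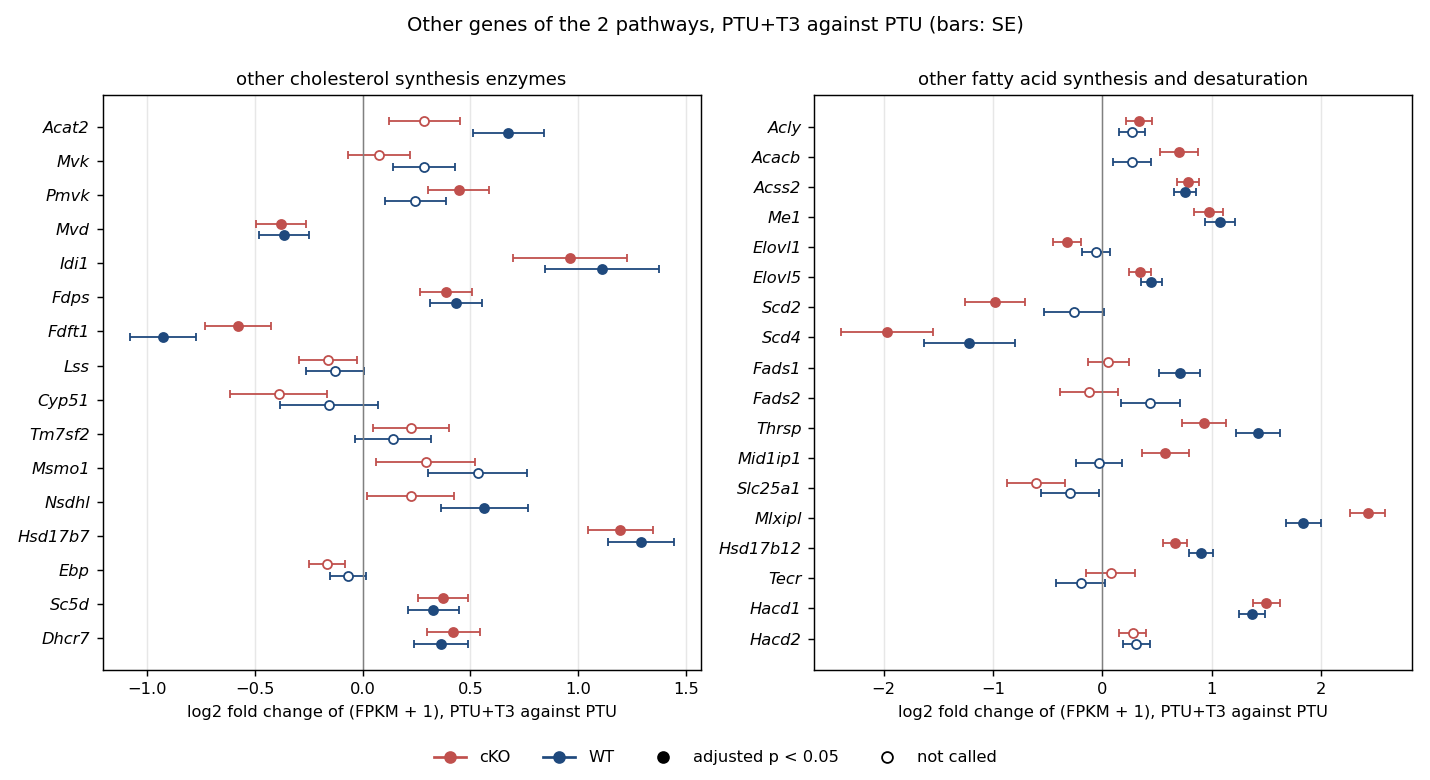
Log2 fold changes of (FPKM + 1), PTU+T3 against PTU, of 16 of the 18 other cholesterol synthesis enzymes (left, in pathway order) and 18 other fatty acid genes (right), with SE bars, in cKO and WT. Filled points had an adjusted p under 0.05. Hsd17b7 (1.19 and 1.29) and Idi1 (0.96 and 1.11) lie to the right and Fdft1 (-0.58 and -0.93) to the left among the cholesterol enzymes, and Mlxipl (2.43 and 1.84) lies farthest right among the fatty acid genes.

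One library held the peak of nearly all 8 genes. WT PTU+T3 replicate 2 had the highest value of 7 of the 8 (87.5%), all but Srebf1, whereas it held the highest value of 7.84% of all tested genes. It also held the highest value of 11 of the 18 other cholesterol enzymes (61.1%), 8 of the 18 other fatty acid genes (44.4%), 7 of 7 tested adipocyte markers and 7 of 10 macrophage markers. Its fibroblast marker sum was the highest of the 18 libraries (1499 FPKM, beside 1467 FPKM in cKO PTU replicate 2), though only 1 of 7 fibroblast markers peaked there. Its endothelial marker sum was the lowest of the 18 (256 FPKM). Its cardiomyocyte marker sum, 50151 FPKM, was the lowest among the PTU+T3 libraries. Of the 10 adipocyte markers, Cidea stood at 26.8 to 47.9 FPKM in every library. The other 9 summed to 36.6, 7.57 and 2.82 FPKM in cKO PTU+T3 and 3.11, 144 and 6.19 FPKM in WT PTU+T3. On PTU they summed to 6.26, 1.39 and 61.2 FPKM in cKO and 32.2, 24.2 and 7.58 FPKM in WT, and on chow to 10.98, 12.5 and 4.33 FPKM in cKO and 3.79, 5.32 and 28.4 FPKM in WT. Adipoq was 7.71 FPKM and Cfd 84.0 FPKM in the high library, and Plin1 was at the floor of 0.01 FPKM in 3 libraries, 1 each of cKO PTU, WT PTU and WT chow.

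Scd1 and Fasn were highest in the T3 libraries with the highest sums, 102 and 14.7 FPKM in WT PTU+T3 replicate 2 and 30.7 and 9.33 FPKM in cKO PTU+T3 replicate 1. The cKO PTU library with a sum of 61.2 FPKM had 11.7 FPKM of Scd1 and 6.02 FPKM of Fasn. Cidea, part of the summed adipocyte markers, was itself called higher with T3 on the log2 scale. It rose by 0.43 in cKO (limma adjusted p = 0.00242) and 0.51 in WT (limma adjusted p = 0.000692), so a covariate that holds it carries a treatment difference. With the summed adipocyte markers as a covariate, the Scd1 change with T3 was 0.45 in cKO and 0.75 in WT and was not called (limma adjusted p = 0.332 and 0.130 in that order). With Cidea left out of the sum, a choice made after seeing the data, it was 0.70 in cKO (limma adjusted p = 0.167) and 1.68 in WT, where it was called (limma adjusted p = 0.00429). Srebf1 and Hmgcs1 were called with T3 in both genotypes under both covariates, with Srebf1 between -1.66 and -1.25 and Hmgcs1 between 0.37 and 0.47.

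**Figure D4:**
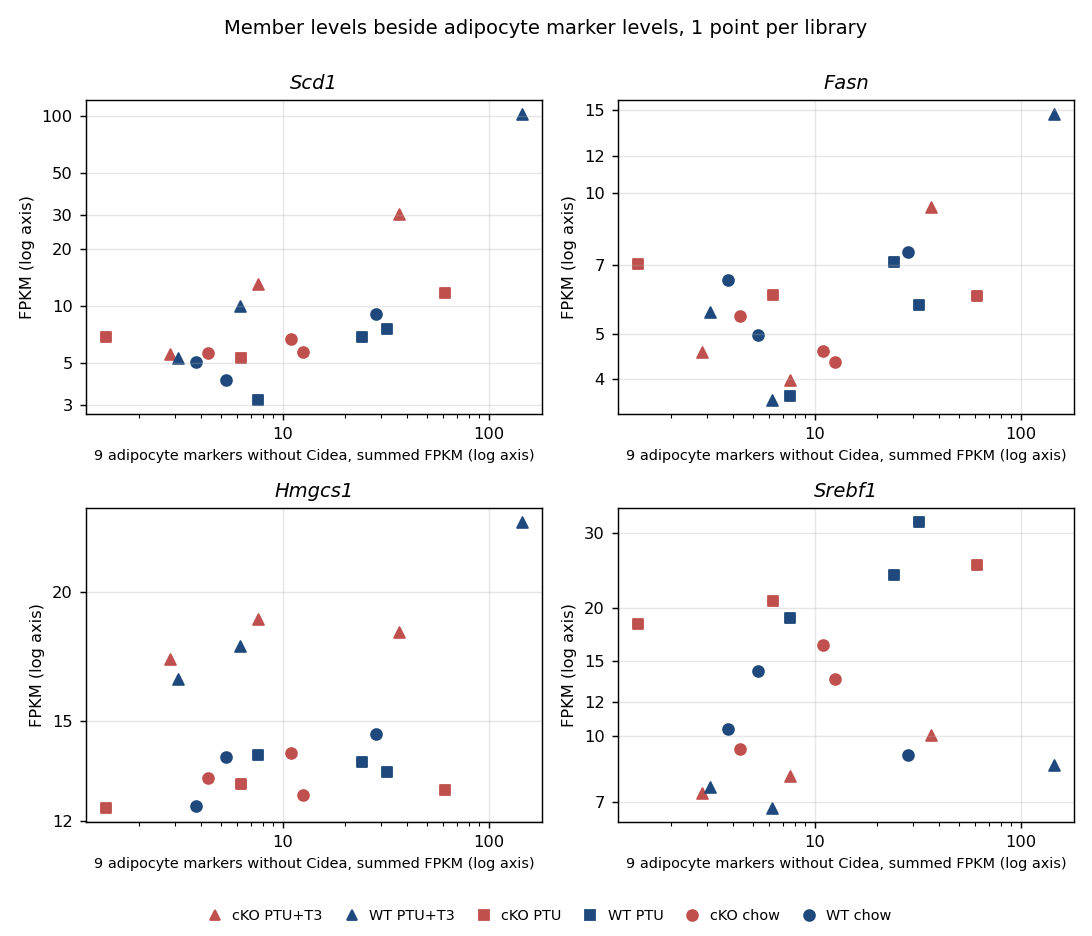
FPKM of Scd1, Fasn, Hmgcs1 and Srebf1 (log axis) against the summed FPKM of 9 adipocyte markers without Cidea (log axis), 1 point per library, with colour for genotype and shape for treatment. The library at 144 FPKM of markers is the highest for Scd1 (102 FPKM), Fasn (14.7 FPKM) and Hmgcs1 (23.4 FPKM), while Hmgcs1 is above 16 FPKM in all 6 PTU+T3 libraries whatever their marker sum.

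Macrophage markers moved with treatment too. With T3, 6 of 10 rose in cKO and 9 of 10 in WT, beside 24.9% and 22.3% of all tested genes, and their sums were 503 to 592 FPKM in cKO PTU+T3, against 194 to 642 FPKM in cKO PTU, and 492 to 833 FPKM in WT PTU+T3, against 193 to 293 FPKM in WT PTU. With PTU alone 0 of 10 macrophage markers were called lower in cKO and 6 of 10 in WT, beside 9.59% and 8.76% of all tested genes. Most were lower in cKO as well, with log2 fold changes from -0.91 (Cd68) to 0.02 (Fcgr1). The sums were 194 to 642 FPKM in cKO PTU, against 403 to 536 FPKM in cKO chow, and 193 to 293 FPKM in WT PTU, against 342 to 619 FPKM in WT chow. With PTU, 4 of 6 tested red blood cell markers were called lower in cKO, with sums of 638 to 1491 FPKM in cKO PTU, against 2026 to 3469 FPKM in cKO chow. In WT they were not called. Those 4 (Hba-a1, Hbb-bt, Hbb-b1 and Alas2) had WT log2 fold changes of -0.52, -0.79, -0.66 and -0.62, and Hba-a2 and Hbb-bs had 3.09 and 0.15. No macrophage or red blood cell marker was called for a difference between genotypes in the PTU or T3 response. The part of either cell type in the results of the 8 genes was not tested.

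The 8 genes did not vary as 1 block, as Srebf1 stood apart. Over the 18 libraries, Pearson's r of log2(FPKM + 1) was 0.84 between Fasn and Acaca, 0.76 between Hmgcs1 and Sqle and between Hmgcs1 and Scd1, and 0.74 between Fasn and Scd1. Among the genes other than Srebf1 every pair was positive, down to 0.29 between Sqle and Insig1. For Srebf1, r ran from -0.64 with Hmgcs1 to 0.10 with Acaca. For deviations from the group means, r was 0.93 between Fasn and Acaca, 0.85 between Acaca and Scd1, 0.83 between Fasn and Scd1 and 0.80 between Hmgcs1 and Scd1, and 0.18 between Hmgcs1 and Srebf1. All pairs were positive on that measure, the lowest 0.0028 between Srebf1 and Srebf2. These values describe 18 libraries that share treatments and the high library. Among all tested genes, the closest pattern to Srebf1 was that of Cited2 (r = 0.95), followed by Wrb and Cep128 (both 0.94). Hmgcs1 was closest to Pin4 (0.95), Ssr2 and H2afz. Gstcd (0.89) was among the closest genes to Sqle. Fasn was closest to Aacs (0.89), the cytosolic acetoacetyl-CoA synthetase, and then to Acaca and Col12a1, while Acaca was closest to Fasn, Thbs1 and Aacs. Scd1 was closest to Tnnt3 (0.89), Acot9 and Hp. Srebf2 (Itgav, 0.82, then Cd44 and Slc39a13) and Insig1 (Taf9b, 0.74, then Nup155 and Trps1) had weaker matches.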

How the data were processed

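Libraries of polyA RNA from frozen mouse hearts were made with a TruSeq version 2 kit, per the labels' protocols, a kit that does not mark strand. The authors deposited gene-level FPKM for 18 libraries, and 6 tables of pairwise comparisons with p-values and q-values. Bowtie2, Cufflinks and the build mm10 are listed, without roles or versions, in the submitters' processing notes. The annotation and strand setting are not stated there. FPKM values hold no counts, which leaves the depth unknown and allows no counting error. Failed estimates (5 values of 2 genes, none of the 8) were left out.

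Values were analysed as log2(FPKM + 1). The genes reaching 1 FPKM in 3 or more libraries were fitted by limma 3.58.1 in R 4.3.3 (6 group means, trended and robust prior), and p-values were adjusted within each of 11 comparisons. The fit was tested on simulated data. The 8 genes and all gene lists were chosen with earlier results of these data known, and no list is independent support. Genes named are the 8, Med13, up to 4 called genes of each list with the largest change for PTU+T3 against PTU in WT and up to 2 in each other comparison, and the 3 genes most correlated with each of the 8. Some genes that the rule names are not reported here, though list counts include them. Alternatives varied the pseudocount, filter, scaling, prior, groups fitted, library weights, marker covariates and libraries left out. The library highest in adipocyte markers of each group was picked by the sum with Cidea. In cKO chow that was replicate 1, although without Cidea replicate 2 had the higher sum (12.5 against 10.98 FPKM). Promoters and positions are from RefSeq, and exon overlaps from GENCODE, both on GRCm38. Replicate numbers follow the order of the records and pair nothing.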

Additional observations from a re-analysis of the deposited data

How the results depend on the processing

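For PTU+T3 against PTU, Srebf1 and Hmgcs1 were called under every alternative in both genotypes, and the number of the 8 genes called was 2 in each genotype and, leaving out 1 library in turn, 2 to 2 in cKO and 2 to 3 in WT. In WT it was also 3 with quantile normalization, through Sqle, and with the adipocyte covariate without Cidea, through Scd1. For PTU against chow in cKO the count was 1, and it was 0 with no filter on low values, with only the groups compared, with sample weights and without the library highest in adipocyte or in atrial markers of each group; leaving out 1 library it was 0 to 1. For PTU against chow in WT it was 1 when leaving out any library and 0 without the library highest in atrial markers. For PTU+T3 against chow in WT it was 1 when leaving out any library, and 0 with only the groups compared and without the library highest in adipocyte markers. In cKO it was 2 with sample weights and with either adipocyte covariate, 0 without the library highest in atrial markers, and 1 to 2 leaving out 1 library. Genotype comparisons and interactions called 0 of the 8 under all alternatives. The cause of these changes was not tested. Over all tested genes, the calls ranged across the alternatives from 517 to 2653 for PTU against chow in cKO (2017 as reported) and 662 to 3438 in WT (2111), from 863 to 3487 for PTU+T3 against chow in cKO (2629) and 468 to 1974 in WT (1848), and from 3685 to 5722 for PTU+T3 against PTU in WT (5545), with the lowest counts in fits without the library highest in adipocyte or atrial markers. Genotype comparisons and interactions called 0 to 4 genes each, beside 0 as reported. None of the called members of the 8 changed direction under any alternative run. No paired analysis was possible because the labels carry no replicate numbers shared between groups. With 3 libraries a group, the intervals of the genes that vary most between libraries, Scd1 above all of the 8, are wide.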
